A study of Danio rerio with 24 samples.

Results

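The comparison described here set the brain of zebrafish whose heart muscle cells had been ablated against the brain of uninjured zebrafish, across all genes. It used the 4 RNA-seq libraries that the labels name for it, 2 of ablated and 2 of uninjured fish, out of 24 samples in the series, of which 14 are RNA-seq libraries. All fish were adult males of the EK strain, 4 to 12 months old, and wild type by label. Fish were ablated by a bath of 17 h in 0.5 to 0.7 µM tamoxifen, and tissue was collected 7 days after it. The labels give neither the transgene through which tamoxifen kills cardiomyocytes nor whether uninjured fish were bathed, so an effect of tamoxifen and an effect of the injury cannot be told apart. Other libraries of the series were used only where stated: whole kidney marrow of ablated and of uninjured fish, 2 libraries each, and ablated brain of cebpd homozygous knockout and of wild type fish, 3 libraries each. Whether the replicates are separate animals or pools is not stated either, so p-values measure only the spread between these samples, which may be technical.

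A wound in one organ changes hormones, cytokines and nutrients in the blood, and the brain meets these first at its vessels and the cells around them. Brain endothelial cells are sealed by tight junctions and carry transporters that control which metabolites enter. Neurons and glia make most of their own cholesterol and adjust its synthesis to supply through the SREBP transcription factors. Insulin holds the FoxO transcription factors out of the nucleus, and genes under FoxO control rise when insulin signalling is low, as in fasting.

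Each library of the brain comparison held 14364306 to 17731325 reads in genes. Levels are counts scaled to library size (CPM) with sizes set by the trimmed mean of M values (TMM), and differences are log2 fold changes of ablated over uninjured brain with their standard error (SE). The most abundant gene, zgc:158463, took 16.6% and 10.7% of gene reads in the ablated libraries against 14.7% and 18.2% in the uninjured ones, so its share overlapped between the groups. The tissue label fitted the markers: 37 neuron markers summed to 20630 and 21170 CPM in ablated brain and to 21800 and 21590 CPM in uninjured brain. In whole tissue, fewer cells of a type and less RNA per cell cannot be told apart.

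The brain as a whole changed little. Of 14781 genes in the files 12371 passed the filter on low counts, and 90% of those had a log2 fold change between -0.32 and 0.30. At an adjusted p under 0.05 in edgeR's quasi-likelihood test, 35 genes were called higher (0.283% of those tested) and 21 lower (0.17%). At an unadjusted p under 0.05 there were 416 higher genes (3.36%) and 431 lower genes (3.48%). Of 67 genes with a log2 fold change beyond 1 in either direction, 11 were called. The SD of the log2 differences between 2 libraries was 0.213 within the ablated group, 0.217 within the uninjured group and 0.221 to 0.237 between groups over 11166 genes. Both ablated libraries lay above both uninjured ones for all 35 higher genes, and below them for all 21 lower genes. Over all tested genes the groups did not overlap in 36.1% (18.1% above, 18% below), so the lack of overlap alone sets a gene apart little.

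**Figure D1:**
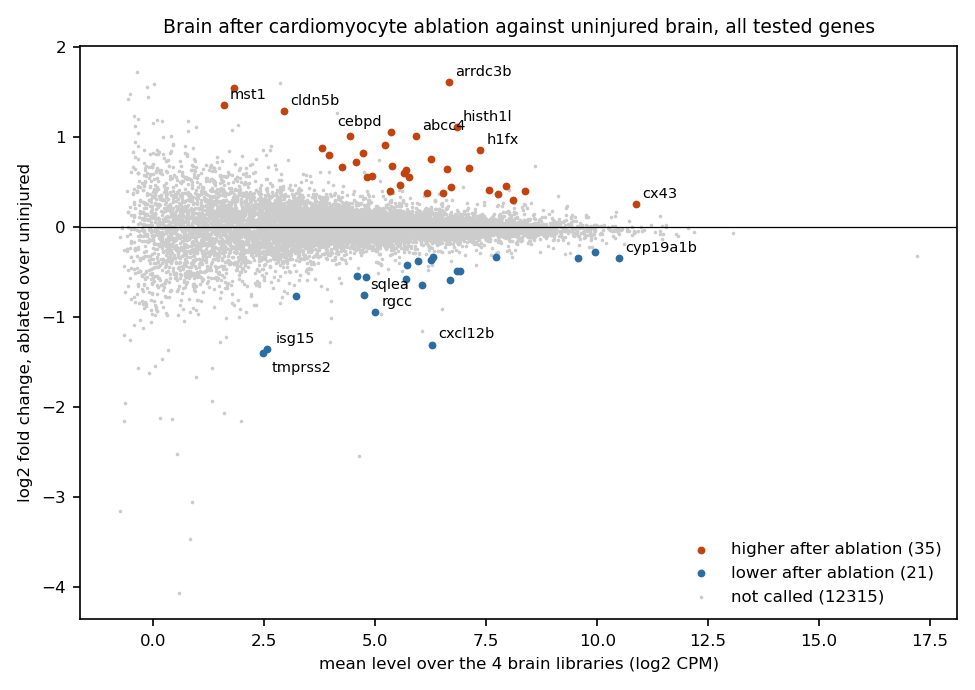
Log2 fold change of ablated over uninjured brain (y axis) against the mean level in log2 CPM over the 4 libraries (x axis) for every tested gene. Called genes are coloured, 35 higher in ablated brain and 21 lower. The called genes span low to very high levels, and many genes with larger fold changes at low levels were not called.

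The gene with the largest called increase encodes an alpha-arrestin, an adaptor that brings ubiquitin ligases to membrane proteins. arrdc3b stood at 141 and 161 CPM in ablated brain, against 41.0 and 58.4 CPM in uninjured brain. Its log2 fold change was 1.61 (SE 0.13, edgeR adjusted p = 0.000305). Its duplicate arrdc3a and the related arrdc2 rose too, by less. arrdc3a stood at 361 and 390 CPM in ablated brain and at 289 and 281 CPM in uninjured brain (log2 fold change 0.40, SE 0.05, edgeR adjusted p = 0.0109). arrdc2 stood at 54.9 and 54.0 CPM in ablated brain and at 39.8 and 39.2 CPM in uninjured brain (0.46, SE 0.07, edgeR adjusted p = 0.0187). The libraries of each group lay close together for both genes. The calls of arrdc3a (0.38) and arrdc2 (0.45) ended without uninjured library 2, while that of arrdc3b held without any single library.

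The 3 alpha-arrestin genes belong to a list of insulin, FoxO and fasting-responsive genes. This list, like the others, was chosen with earlier results of these data known, so its counts are no independent support for its calls. Of its 35 tested members 23 had a fold change above 0, against 49.6% of all tested genes. The median was 0.07. It was 0.05 without uninjured library 1 and 0.12 without uninjured library 2. Of the members 4 were called higher and none lower, where 0.283% and 0.17% of all tested genes were. The fourth was lpl, for lipoprotein lipase, which frees fatty acids from lipoproteins in the blood. lpl stood at 33.5 and 24.2 CPM in ablated brain, against 15.01 and 13.4 CPM in uninjured brain (1.01, SE 0.15, edgeR adjusted p = 0.0149; not called without uninjured library 2, at 0.93). Among the 31 members that were not called, 6 had an unadjusted p under 0.05 on the higher side and 2 on the lower side. Over all tested genes these shares were 3.36% and 3.48%. The 6 were chosen after their values were seen and did not pass over all genes. They are klf15 (0.50), a fasting-induced transcription factor, pdk2b (0.32), a kinase that restrains pyruvate oxidation, txnipa (0.27), an alpha-arrestin that limits glucose uptake, pik3ip1 (0.23), an inhibitor of phosphoinositide 3-kinase, ccng2 (0.20) and sesn1 (0.15). The FoxO genes themselves were not called, at 0.18 for foxo1a and 0.05 for foxo3a (also chosen after their values were seen). The 2 members on the lower side at an unadjusted p under 0.05 were irs2a (-0.22) and angptl4 (-0.41). irs2a is an insulin receptor substrate gene, and angptl4 encodes an inhibitor of lipoprotein lipase. In all, 12 members lay below 0.

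Among the 30 gene lists, that of cholesterol synthesis had the largest share of its members on 1 side of 0. Of 31 tested sterol synthesis and uptake genes, 30 had a fold change below 0, against 50.4% of all tested genes, with a median of -0.32. At an unadjusted p under 0.05, 19 were lower and none higher, where 3.48% of all genes were lower. The 4 that passed over all genes are enzymes at different steps. acat2 joins acetyl-CoA units, hmgcs1 makes HMG-CoA, sqlea is the squalene epoxidase and msmo1 removes methyl groups from the sterol ring. sqlea stood at 17.5 and 21.97 CPM in ablated brain, against 33.3 and 33.7 CPM in uninjured brain (log2 fold change -0.75, SE 0.11, edgeR adjusted p = 0.0147). hmgcs1 stood at 44.2 and 59.4 CPM in ablated brain, against 79.6 and 83.4 CPM in uninjured brain (-0.64, SE 0.11, edgeR adjusted p = 0.0321). msmo1 stood at 38.8 and 44.2 CPM in ablated brain, against 61.8 and 62.3 CPM in uninjured brain (-0.58, SE 0.08, edgeR adjusted p = 0.0109). In all 3, ablated library 1 was the lower of the ablated pair and the uninjured pair lay close together. acat2 fell least, to 53.8 and 55.1 CPM in ablated brain, against 72.7 and 68.6 CPM in uninjured brain (-0.37, SE 0.07, edgeR adjusted p = 0.0418).

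Of the 27 sterol genes that were not called 26 lay below 0. They included the rate-limiting reductase gene hmgcra (-0.49, adjusted p = 0.127 in edgeR), lss (-0.58), cyp51 (-0.47), the feedback regulator gene insig1 (-0.44) and srebf2 (-0.29), which encodes the transcription factor that drives the pathway. These 5 were chosen after their values were seen. The member above 0 was lbr (0.06), a nuclear envelope protein with sterol reductase activity. The list mean was 4.46 and 4.63 log2 CPM in ablated brain, against 4.87 and 4.87 log2 CPM in uninjured brain. Without any 1 of the 4 libraries 28 to 30 members lay below 0, and the median ran from -0.46 to -0.24. The calls of sqlea (-0.74), hmgcs1 (-0.61) and acat2 (-0.42) ended without uninjured library 2, and that of acat2 also without uninjured library 1 (-0.33). Myelin is rich in cholesterol, and the 19 oligodendrocyte and myelin markers summed to 3085 to 3168 CPM in ablated brain and to 3459 to 3467 CPM in uninjured brain, with 12 below 0 and none at 0 in all libraries. The part of this difference in the sterol result was not tested.

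**Figure D2:**
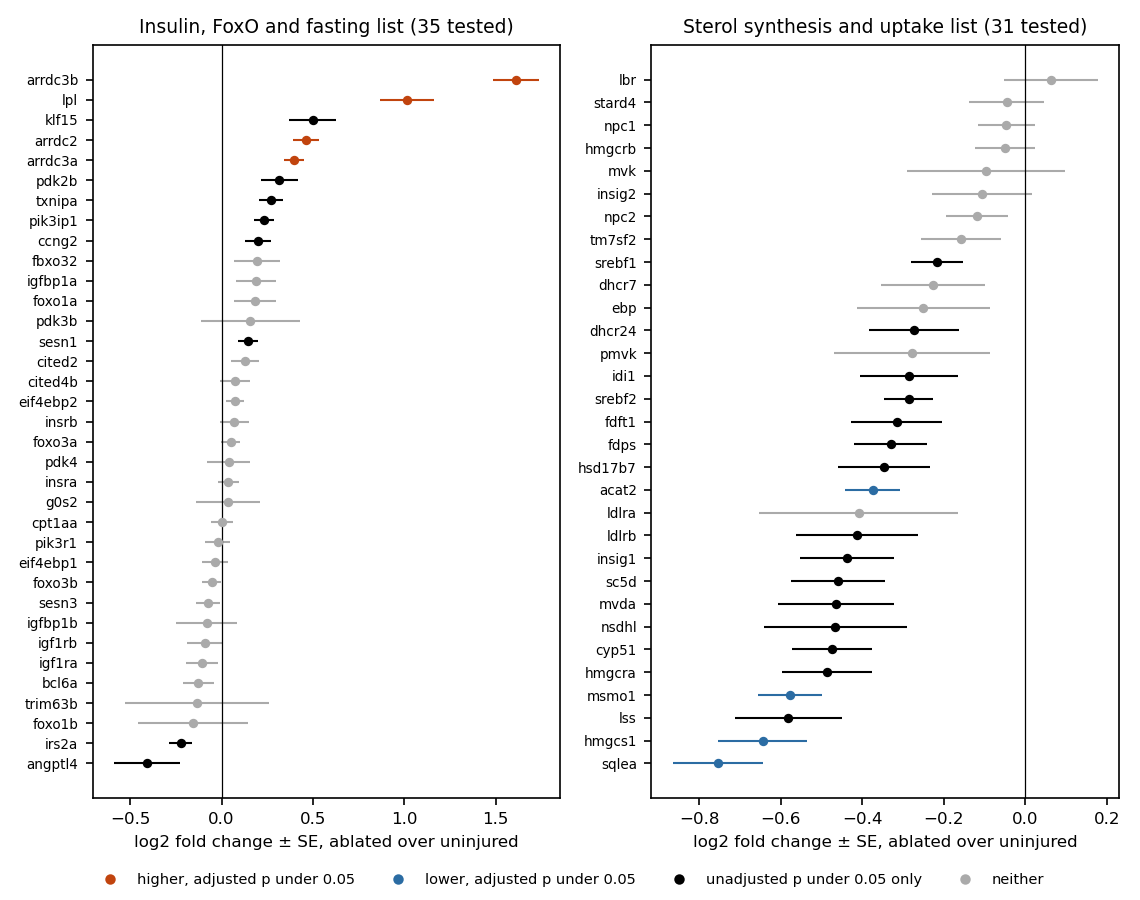
Log2 fold change of ablated over uninjured brain with its SE (x axis) for the 35 tested members of the insulin, FoxO and fasting list (left) and the 31 of the sterol list (right), 1 gene per line. Coloured genes passed over all tested genes, and black ones had an unadjusted p under 0.05 only. On the right 30 of 31 genes lie below 0, and on the left 23 of 35 lie above 0.

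Other genes of lipid handling moved in both directions. lpin1, a phosphatidate phosphatase of triglyceride synthesis, rose to 104 and 86.9 CPM in ablated brain, against 58.8 and 54.3 CPM in uninjured brain (0.75, SE 0.09, edgeR adjusted p = 0.00596). ptgdsb, a lipocalin-type prostaglandin D synthase, rose to 126 and 112 CPM, against 80.7 and 71.3 CPM in uninjured brain (0.65, SE 0.08, edgeR adjusted p = 0.00596). Both genes had separate groups, as every called gene had, and kept their call without any single library. elovl7a, a fatty acid elongase, fell (-0.56, SE 0.10, edgeR adjusted p = 0.0495), but its call ended without ablated library 1 (-0.43), uninjured library 1 (-0.52) or uninjured library 2 (-0.59). Of 25 tested genes of fatty acid synthesis, desaturation and elongation 17 lay below 0, against 50.4% of all tested genes, with a median of -0.12. At an unadjusted p under 0.05, 2 were higher and 7 lower, where 3.36% and 3.48% of all genes were. There was 1 call in each direction, where 0.283% of all genes were called higher and 0.17% lower. The desaturase gene fads2 (-0.29) and elovl1b (-0.26) did not pass, at edgeR adjusted p = 0.145 and 0.217. abca1a, which exports cholesterol from cells, lay just outside the threshold on the higher side (0.41, edgeR adjusted p = 0.0513).

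Several transporter genes rose, 2 of them by more and 3 by less than the median log2 fold change of 0.66 over the 35 higher genes. abcc4, an efflux pump for organic anions and cyclic nucleotides, stood at 86.4 and 75.3 CPM in ablated brain, against 44.7 and 35.4 CPM in uninjured brain (1.01, SE 0.10, edgeR adjusted p = 0.00378). The paralogs slc16a9a and slc16a9b, of the monocarboxylate transporter family, both rose. slc16a9b stood at 40.2 and 56.2 CPM in ablated brain, against 22.4 and 29.4 CPM in uninjured brain (0.91, SE 0.15, edgeR adjusted p = 0.0321). slc16a9a stood at 81.4 and 81.3 CPM in ablated brain, against 61.97 and 63.1 CPM in uninjured brain (0.38, SE 0.06, edgeR adjusted p = 0.0310). The copies differed in spread, since slc16a9b varied more within each group. slc3a2b (0.31, edgeR adjusted p = 0.0316) encodes the heavy chain shared by exchangers of large amino acids, and slc20a1b (0.36, edgeR adjusted p = 0.0379) a phosphate transporter. Of 33 tested barrier transporter genes, 18 lay above 0 (median 0.04), against 49.6% of all tested genes. Among them 4 were called higher and 1 lower, where 0.283% and 0.17% of all genes were. Without uninjured library 1, 16 lay above 0 (median -0.01). The lower one was slc2a1a, the glucose transporter of the blood-brain barrier, at 90.5 and 108 CPM in ablated brain, against 146 and 133 CPM in uninjured brain (-0.49, SE 0.08, edgeR adjusted p = 0.0324).

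The call of slc3a2b (0.27) ended without uninjured library 2, those of slc16a9b (0.73) and slc2a1a (-0.42) without uninjured library 1, and those of slc16a9a (0.37 and 0.39) and slc20a1b (0.35 and 0.38) without either. DESeq2 did not call slc16a9b (adjusted p = 0.267). Amino acid metabolism gave single genes and no shift of its list. gpt2l, an alanine aminotransferase, rose to 277 and 289 CPM in ablated brain, against 194 and 218 CPM in uninjured brain (0.46, SE 0.06, edgeR adjusted p = 0.0109), and kept its call without any single library. slc38a9, a lysosomal amino acid sensor for the kinase complex mTORC1, stood at 6.94 and 6.72 CPM in ablated brain, against 11.9 and 11.3 CPM in uninjured brain (-0.77, SE 0.14, edgeR adjusted p = 0.0381). Its call ended without either uninjured library (-0.73 and -0.81) and in DESeq2 (adjusted p = 0.144). Of 36 tested genes of the amino acid response 15 lay above 0 (median -0.02). Among them 2 were called higher and 1 lower, where 0.283% and 0.17% of all tested genes were.

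Genes of blood vessels and their matrix formed another part of the higher set. cldn5b, a claudin of endothelial tight junctions, stood at 9.96 and 11.2 CPM in ablated brain, against 4.32 and 4.39 CPM in uninjured brain (1.29, SE 0.16, edgeR adjusted p = 0.00596). dll4, a Notch ligand of endothelial cells, stood at 31.0 and 28.0 CPM in ablated brain, against 16.8 and 19.0 CPM in uninjured brain (0.72, SE 0.10, edgeR adjusted p = 0.0147). fli1a, a transcription factor of endothelial cells, stood at 32.8 and 33.4 CPM in ablated brain, against 21.4 and 23.4 CPM in uninjured brain (0.56, SE 0.09, edgeR adjusted p = 0.0235). In each gene the libraries of a group lay close. The groups were apart, as for every called gene and for 36.1% of all tested genes in either direction. igfbp7 (0.57, edgeR adjusted p = 0.0258), a secreted binding protein found in vessel walls, ctgfa (0.67, edgeR adjusted p = 0.0379), a matricellular growth factor, and the fibronectin gene fn1b (0.63, edgeR adjusted p = 0.00596) rose as well. Against these, the endothelial genes podxl, a surface sialomucin (-0.36, edgeR adjusted p = 0.0418), and klf2a, a transcription factor induced by blood flow (-0.54, edgeR adjusted p = 0.0495), fell, as did rgcc, a regulator of the cell cycle. rgcc stood at 22.7 and 21.2 CPM in ablated brain, against 49.8 and 34.2 CPM in uninjured brain (-0.94, SE 0.15, edgeR adjusted p = 0.0209).

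Of 29 endothelial markers 5 were higher and 2 lower at an unadjusted p under 0.05, where 3.36% and 3.48% of all genes were. Called were 2 as higher (cldn5b and fli1a) and 1 as lower (podxl), where 0.283% and 0.17% of all genes were. The markers as a list differed little in their sum. They summed to 1123 and 1107 CPM in ablated brain, against 1075 and 1074 CPM in uninjured brain, with none of the 29 at 0, 20 above 0 and a median of 0.08. The 18 tested mural cell markers, of the contractile cells around vessels, summed to 747 and 718 CPM in ablated brain, against 702 and 700 CPM in uninjured brain, with 16 above 0, a median of 0.03 and no call. mcamb (0.20), myl9a (0.44), myl9b (0.25) and foxf2a (1.19) had the smallest p among them, at edgeR adjusted p of 0.397 to 0.512. Fibroblast and meningeal markers summed to 1455 and 1478 CPM in ablated brain, against 1386 and 1436 CPM in uninjured brain, with 18 of 28 above 0 (median 0.05). The calls on this list were fn1b, krt8 and krt18 as higher and cxcl12b as lower, where 0.283% and 0.17% of all genes were called. krt8 and krt18 are also keratins of simple epithelia. The part of these small differences in the single genes was not tested. Of 33 tight and adherens junction genes 13 lay above 0 (median -0.02). The only call was cldn5b, as higher, where 0.283% of all genes were called higher. cldn7a (0.61), cldn19 (-0.26) and the cadherin gene cdh1 (-0.86) did not pass. The calls of fli1a (0.50), igfbp7 (0.55), podxl (-0.33) and klf2a (-0.55) ended without uninjured library 1, those of igfbp7 (0.58), ctgfa (0.56), podxl (-0.39) and klf2a (-0.53) without uninjured library 2, and that of klf2a also without ablated library 1 (-0.45).

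The smallest p of all belonged to cxcl12b, a chemokine that guides and retains cells bearing the receptor Cxcr4. cxcl12b stood at 42.1 and 46.7 CPM in ablated brain, against 109 and 111 CPM in uninjured brain. Its log2 fold change was -1.31 (SE 0.07, edgeR adjusted p = 1.14e-05) and lay between -1.39 and -1.24 without any 1 library. Among cytokine and stress signalling genes, cebpd, a C/EBP transcription factor of the acute-phase response, rose to 63.4 and 47.3 CPM in ablated brain, against 28.5 and 24.6 CPM in uninjured brain (1.05, SE 0.13, edgeR adjusted p = 0.00596). socs3b, a feedback inhibitor of JAK-STAT signalling, rose to 16.7 and 18.9 CPM in ablated brain, against 8.94 and 10.5 CPM in uninjured brain (0.87, SE 0.13, edgeR adjusted p = 0.0163; not called without uninjured library 1, at 0.76). Other JAK-STAT and IL-6 family genes gave no shared direction: 18 of 37 lay above 0 (median -0.004). The only call was socs3b, where 0.283% of all tested genes were called higher. junba (0.34), stat2 (-0.42) and pim2 (0.49) did not pass. The ablated libraries lay on 1 side of the uninjured ones for each of these 3, as they did for 36.1% of all tested genes.

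Of 27 tested interferon-response genes 20 lay below 0 (median -0.25), against 50.4% of all tested genes. At an unadjusted p under 0.05, 11 were lower and 1 higher, where 3.48% and 3.36% of all genes were. isg15, whose ubiquitin-like product is coupled to proteins during the interferon response, was the only one called, at 3.16 and 3.38 CPM in ablated brain and 8.07 and 8.77 CPM in uninjured brain (-1.36, SE 0.18, edgeR adjusted p = 0.00852). DESeq2 gave it no adjusted p. Over all tested genes edgeR called 0.17% lower. Without uninjured library 2 the list had 17 members below 0 and a median of -0.10. Among 32 glucocorticoid-responsive genes 20 lay above 0 (median 0.08), against 49.6% of all tested genes. At an unadjusted p under 0.05, 7 were higher and 3 lower, where 3.36% and 3.48% of all genes were. cebpd was the only call there, where 0.283% of all tested genes were called higher. ddit4 (0.35), glulb (0.23) and sgk1 (-0.31) did not pass.

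The linker histone genes histh1l and h1fx, whose products bind DNA between nucleosomes, rose together. histh1l stood at 144 and 166 CPM in ablated brain, against 54.0 and 90.01 CPM in uninjured brain (1.11, SE 0.17, edgeR adjusted p = 0.0163). h1fx stood at 186 and 236 CPM in ablated brain, against 94.8 and 139 CPM in uninjured brain (0.85, SE 0.15, edgeR adjusted p = 0.0326). Both were lowest in uninjured library 1, and DESeq2 called neither (adjusted p = 0.269 for histh1l and 0.566 for h1fx). Cell cycle genes did not move with them: 16 of 40 lay above 0 (median -0.06), none was called, and the proliferation marker mki67 had a log2 fold change of -0.41 (edgeR adjusted p = 0.394).

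The keratin partners krt8 and krt18, which pair into the filaments of simple epithelia, rose by similar amounts. krt8 stood at 221 and 212 CPM in ablated brain, against 162 and 163 CPM in uninjured brain (0.41, SE 0.05, edgeR adjusted p = 0.00852). krt18 stood at 115 and 126 CPM in ablated brain, against 84.3 and 92.7 CPM in uninjured brain (0.45, SE 0.07, edgeR adjusted p = 0.0228; not called without uninjured library 1, at 0.38). They were the only called genes that neighbour each other in the annotation of GRCz12tu, where 54 of the 56 called genes were found. The chromosome with most called genes held 7 of them, 12.96% of those found, where 3.46% of tested genes lie: hmgcs1, slc38a9, slc20a1b, dpysl2b, tmprss2, arrdc3b and cldn5b. Of these 7, 3 rose and 4 fell. The chromosome was picked by its count of called genes, so nothing is read from its share.

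Among genes of neurons, glia and blood, calls were few and went both ways. cyp19a1b, the aromatase of teleost radial glia, stood at 1181 and 1360 CPM in ablated brain, against 1659 and 1574 CPM in uninjured brain (-0.35, SE 0.06, edgeR adjusted p = 0.0418). cx43, a gap junction gene on the same marker list, rose to 2018 and 2066 CPM in ablated brain, against 1729 and 1686 CPM in uninjured brain (0.26, SE 0.04, edgeR adjusted p = 0.0324). The 28 tested radial glia markers summed to 14640 and 15190 CPM in ablated brain and to 15210 and 14470 CPM in uninjured brain, so the sums overlapped while these genes moved in opposite directions. s100b (-0.22) and fabp7a (-0.23) did not pass, at edgeR adjusted p = 0.0698 and 0.126. The alpha-tubulin gene tuba2 (-0.28, edgeR adjusted p = 0.0326) and dpysl2b (-0.33, edgeR adjusted p = 0.0381), a microtubule-binding protein of growing axons, fell. Of 37 neuron markers 12 lay above 0 (median -0.04), none was called, and the neurofilament gene nefma had the smallest p (-0.18, edgeR adjusted p = 0.239).

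Without uninjured library 1 the calls of cyp19a1b (-0.31), cx43 (0.28), tuba2 (-0.28) and dpysl2b (-0.26) ended, and without uninjured library 2 those of cyp19a1b (-0.39), cx43 (0.24) and tuba2 (-0.28). The adult alpha-globin gene hbaa1 stood at 86.7 and 76.7 CPM in ablated brain, against 137 and 108 CPM in uninjured brain (-0.59, SE 0.10, edgeR adjusted p = 0.0321; not called without uninjured library 1, at -0.41). The 24 tested erythroid markers summed to 710 and 650 CPM in ablated brain and to 742 and 724 CPM in uninjured brain, with 10 above 0. The part of the blood left in the tissue in the hbaa1 value was not tested. The largest called decrease was that of tmprss2, a membrane serine protease, at 2.03 and 3.81 CPM in ablated brain and 7.50 and 8.44 CPM in uninjured brain (-1.40, SE 0.24, edgeR adjusted p = 0.0340; not called without uninjured library 2, at -1.32).

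The remaining called genes are listed by direction. On the higher side the zinc finger gene znf395a (0.83), ftr82 of the finTRIM family (0.80), fam43a (0.38), hif1al2 (0.40) and mst1 (1.35), which encodes a secreted relative of hepatocyte growth factor, passed. So did wu:fj16a03 (0.67), zgc:158423 (0.60), zgc:174710 (0.66), LOC100003647 (1.55) and si:dkey-85k7.7 (0.56), a long noncoding RNA in RefSeq. mst1 and LOC100003647 rested on few reads, 22 and 24 in their lowest library, at 4.07 and 4.08 CPM for mst1 in ablated brain against 1.69 and 1.49 CPM in uninjured brain. On the lower side the lysosomal membrane gene scarb2 (-0.48), flj13639 (-0.34), clic2 (-0.42), which encodes an intracellular chloride channel protein, and the galectin gene lgals2a (-0.34) passed. Across these 14 genes edgeR adjusted p ran from 0.00596 to 0.0495. The calls of scarb2 (-0.45), ftr82 (0.69), LOC100003647 (1.497), si:dkey-85k7.7 (0.51) and clic2 (-0.34) ended without uninjured library 2, and that of flj13639 (-0.28) without uninjured library 1. Those of mst1 (1.45 and 1.27), fam43a (0.32 and 0.43), hif1al2 (0.41 and 0.40) and lgals2a (-0.33 and -0.34) ended without either, and that of lgals2a also without ablated library 1 (-0.31).

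**Figure D3:**
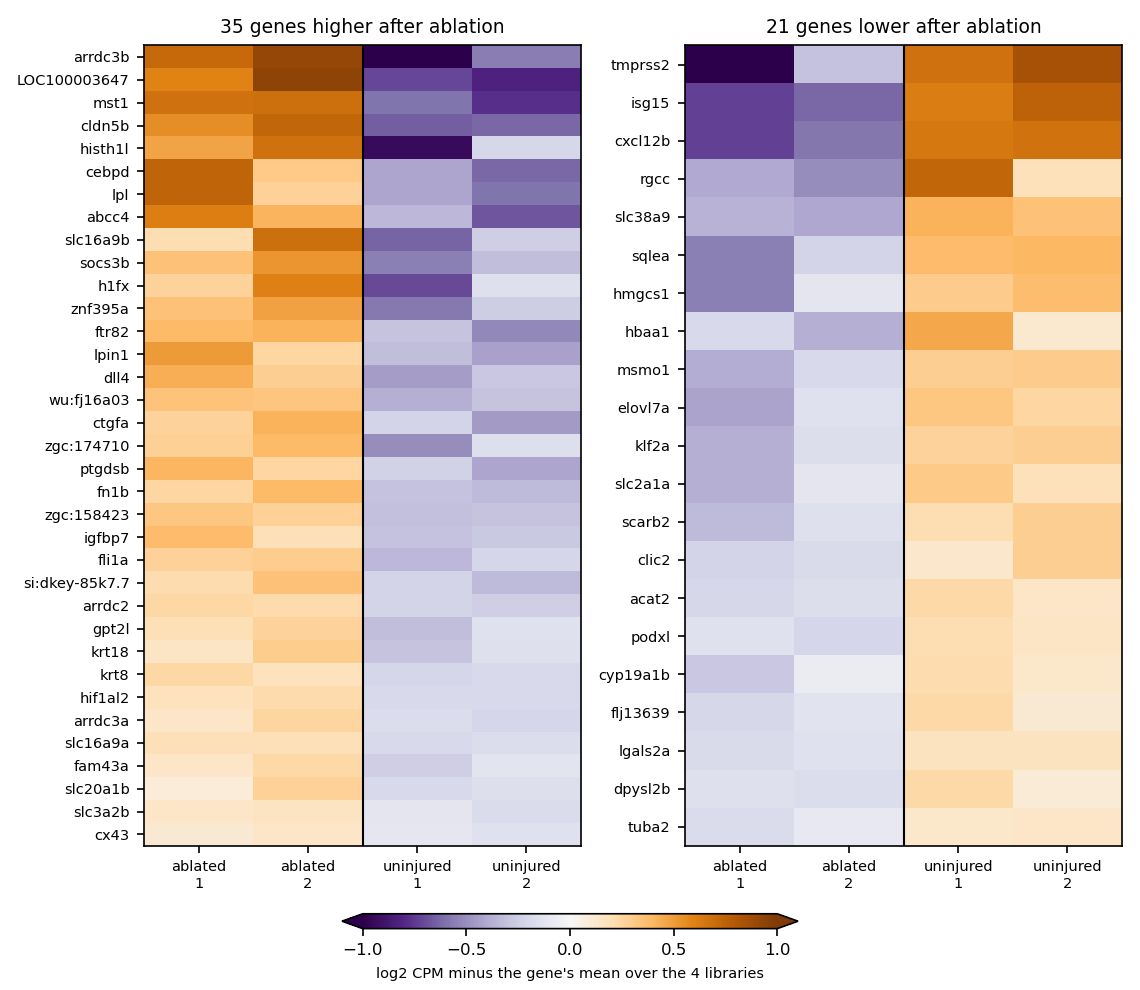
Level of each called gene in each library, as log2 CPM minus the gene's mean over the 4 libraries (colour, orange above and purple below, ending at 1 and -1), with ablated libraries left of the line and uninjured ones right of it. For all 35 higher genes (left) and 21 lower genes (right) the groups do not overlap, and the step is small against the colour range for genes such as cx43 and tuba2.

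Not every call was equally firm. Without each single library in turn, 16 of the 35 higher and 4 of the 21 lower genes kept their call. The 4 lower ones were cxcl12b, isg15, msmo1 and rgcc. Across the 10 alternatives run on these 4 libraries, 14 higher and 3 lower genes kept it, and 2 in each direction had no adjusted p in at least 1. Among the 10, edgeR's older quasi-likelihood method gave the same 56 calls with the same adjusted p, so it was no separate check. The replicate block called 358 genes in all and kept all 56, so it could hardly end a call. The wider fit of 8 libraries is not among the 10, and it kept 1 of the 56 calls. Besides those named above, DESeq2 did not call hif1al2 (adjusted p = 0.133), klf2a (0.0764) or lgals2a (0.0536), and gave no adjusted p for mst1, LOC100003647 and tmprss2. Each call that ended when 1 library was left out did so without an uninjured library, and elovl7a, klf2a and lgals2a also lost theirs without ablated library 1. Fits without an ablated library called more genes than those without an uninjured one. They were thus less strict, and nothing is read from which library ended a call. Just outside the threshold on the higher side stood abca1a (0.41), the heat shock gene hsp90aa1.2 (0.25), the NADPH oxidase subunit gene ncf1 (0.74), the neuroglobin gene ngb (0.28) and the amino acid transporter gene slc43a2b (0.74). On the lower side stood zwi (-0.28), the galectin gene lgals9l1 (-0.47), tnfrsf9a (-0.51), s100b (-0.22) and dhx58 (-0.74), a sensor of viral RNA. Their edgeR adjusted p ran from 0.0510 to 0.0771.

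Of the other gene lists only 2 held a called gene, both lower, where 0.17% of all tested genes were called lower. Immediate early genes had 21 of 33 above 0 (median 0.05), with klf2a as their call, and hypoxia and glycolysis genes had 15 of 39 (median -0.02), with slc2a1a as theirs. Circadian clock genes had 21 of 36 above 0 (median 0.04), and heat shock genes 22 of 38 (median 0.01). Without uninjured library 2, 15 of the immediate early genes lay above 0 (median -0.03). Without ablated library 1 the median was -0.02 for circadian clock genes and 0.01 for hypoxia and glycolysis genes. Complement and acute-phase genes had 12 of 18 above 0 (median 0.06) with no member at an unadjusted p under 0.05. Microglia and macrophage markers had 13 of 26 above 0 (median -0.01), neutrophil markers 12 of 19 (0.10) and lymphocyte markers 6 of 13 (-0.03). Ependymal and cilium markers had 20 of 33 above 0 (0.10), lens markers 6 of 12 (0.001), and anterior pituitary markers 5 of 11 (-0.04).

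Grouping all genes by the stem of their symbol gave 131 families of at least 10 tested members, which no list had chosen. The highest median was that of the hoxb genes, transcription factors of hindbrain and trunk, at 0.17 with 9 of 12 above 0, 1 at an unadjusted p under 0.05 (hoxb5b, 0.32) and no call. The wnt (0.10), fbxl (0.09), atg (0.08) and sult (0.07) families followed, with no call. The lowest median was that of the alpha-tubulin genes, the tuba family, at -0.24 with 9 of 10 below 0, 4 at an unadjusted p under 0.05 and tuba2 called. tuba8l3 (-0.37), tuba1c (-0.30) and tuba8l2 (-0.22) did not pass, and reads can be shared among such near-identical genes. The klf transcription factors came next at -0.13. Of 18 klf genes 7 were lower at an unadjusted p under 0.05, klf2a with a call and klf13 (-0.27), klf3 (-0.47), klf2b (-0.51), klf4 (-0.55), klf17 (-0.65) and klf11a (-0.40) without one, while klf15 (0.50) was the 1 higher gene. Over all tested genes 3.48% were lower and 3.36% higher at that level, and 0.17% were called lower. The families were ranked by these same values, so their counts are no separate support. Medians of the her, col and pde families were -0.11 each.

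Some large fold changes came from single libraries. In 57 cases a gene stood at least 1 log2 unit from the nearest of the other 3 libraries, with at least 2 CPM in its highest library. Ablated library 2 stood below the rest in 20 genes and above in 3, and uninjured library 2 above the rest in 26 and below in none, while the other 2 libraries had 8 in all. Many of these genes encode photoreceptor proteins. The rod opsin gene rho stood at 14.6 and 1.13 CPM in ablated brain, against 31.4 and 53.2 CPM in uninjured brain (log2 fold change -2.54, edgeR adjusted p = 0.108). Both ablated libraries lay below both uninjured ones here, and the second ablated library stood furthest from the rest. Other genes of ablated library 2 were loxl2b at 65.7 and 18.6 CPM in ablated brain, against 96.1 and 87.1 CPM in uninjured brain, and the myoglobin gene mb at 4.07 and 16.0 CPM, against 2.75 and 4.12 CPM. Uninjured library 2 stood out for photoreceptor genes such as guca1c and gnb3b. It also did for muscle genes such as myhc4, at 5.61 and 5.37 CPM in ablated brain against 2.81 and 16.3 CPM in uninjured brain. The epithelial genes pkp3a, ppl and cldnb (chosen after their values were seen) were highest in that library too. pkp3a stood at 2.3 and 2.9 CPM in ablated brain, against 3.0 and 6.95 CPM in uninjured brain.

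The photoreceptor and pineal list accordingly depended on these libraries. Its 41 tested members summed to 865 and 724 CPM in ablated brain and to 832 and 1000 CPM in uninjured brain, with 32 below 0, a median of -0.38 and no call. The median was -0.07 without ablated library 2, -0.04 without uninjured library 2, -0.75 without uninjured library 1 and -1.36 without ablated library 1. Striated and heart muscle markers summed to 418 and 404 CPM in ablated brain, against 394 and 500 CPM in uninjured brain, with 9 of 36 above 0 (median -0.17). Without uninjured library 2 that median was 0.22. Whether different amounts of eye, pineal, muscle or epithelial tissue entered the libraries was not tested.

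Whole kidney marrow of ablated and uninjured fish shares no library with the brain comparison, and no brain gene passed there in edgeR (smallest adjusted p = 0.0740). There 0% of all tested marrow genes passed in either direction. In DESeq2, 10 of the 56 brain genes passed as higher in ablated marrow and 5 as lower, where 5.91% of all genes passed. Of these, lpl and acat2 passed in the direction opposite to that in brain. Of the 35 brain-higher genes 24 lay above 0 in marrow, against 49% of all genes, and 11 were higher at an unadjusted p under 0.05, against 12.3%. cldn5b (1.84), wu:fj16a03 (1.67), fn1b (1.61) and socs3b (1.56) had larger fold changes there than in brain. socs3b stood at 148 and 107 CPM in ablated marrow, against 44.1 and 42.0 CPM in uninjured marrow. arrdc3b stood at 121 and 214 CPM in ablated marrow, against 131 and 193 CPM in uninjured marrow (0.05, SE 0.32, edgeR unadjusted p = 0.886). Of the 21 brain-lower genes 15 lay below 0, against 51% of all genes, and 4 were lower at an unadjusted p under 0.05, against 7.34%, with isg15 at -1.57.

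Other gene lists also lay largely to one side of 0 in marrow. Interferon-response genes had 27 of 29 below 0 (median -0.47), with 16 lower at an unadjusted p under 0.05. The insulin, FoxO and fasting list had 27 of 35 below 0 (median -0.18), the direction opposite to that in brain. All 42 tested cell cycle genes lay above 0 (median 0.96, 35 higher at an unadjusted p under 0.05), and they summed to 2918 and 2464 CPM in ablated marrow, against 1672 and 1112 CPM in uninjured marrow. Erythroid markers had 24 of 26 above 0 (median 0.46), with overlapping sums of 15810 and 9948 CPM in ablated marrow, against 11160 and 7788 CPM in uninjured marrow. Lymphocyte markers had 17 of 19 below 0 (median -0.51), with sums of 257 and 248 CPM in ablated marrow, against 299 and 294 CPM in uninjured marrow. Their part in the marrow values and in the differences between brain and marrow was not tested.

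An interaction term over 8 libraries tested whether a gene responded differently in brain and marrow. Of 13077 genes 5 had a higher (0.0382%) and 29 a lower response in brain (0.222%), and 2 of the 56 brain genes were among them. cxcl12b differed by -1.15 (SE 0.15, edgeR adjusted p = 0.0430), since it lay at 35.9 and 40.2 CPM in ablated marrow, against 39.2 and 45.8 CPM in uninjured marrow. acat2 differed by -1.14 (SE 0.13, edgeR adjusted p = 0.0245), with 27.2 and 25.3 CPM in ablated marrow, against 15.8 and 15.04 CPM in uninjured marrow. Of the 35 brain-higher genes 24 had an interaction above 0 (51.7% of all genes) and 12 a higher one at an unadjusted p under 0.05 (6.3%). Of the 21 brain-lower genes 15 had one below 0 (48.3%) and 7 a lower one at that level (9.69%). These counts use the brain libraries by which the genes were chosen, so nothing is read from them. acat2 was higher in ablated marrow and lower in ablated brain. No interaction was called when any 1 brain library was left out.

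Brain of cebpd homozygous knockout fish, compared with wild type after ablation in both, used 6 other libraries. These were shallower than those of the brain comparison, at 4377028 to 6280007 reads in genes, which limits what could pass there. cebpd itself had 1.298, 3.05 and 0.906 CPM in mutant brain, against 49.4, 78.4 and 41.7 CPM in wild type brain. Of the other 34 brain-higher genes 32 were tested, and 29 lay below 0 in the mutants, against 50.1% of all genes. Their median was -0.26, and 12 were lower at an unadjusted p under 0.05, against 4.95%. None of the 32 passed over all genes in edgeR, where 0.0991% of all genes passed as lower and 0.036% as higher. Of the 20 brain-lower genes tested 12 lay below 0 in the mutants too and 8 above 0, against 49.9% of all genes above. At an unadjusted p under 0.05, 4 of the 20 were lower (isg15, hbaa1, flj13639 and lgals2a, named after their values were seen) and 1 was higher, where 3.55% of all genes were higher. arrdc3b had 195, 179 and 114 CPM in mutant brain, against 247, 403 and 196 CPM in wild type brain (-0.79, SE 0.22, edgeR adjusted p = 0.261). Besides cebpd, hbaa1 came nearest to the threshold, at 351, 357 and 304 CPM in mutant brain, against 463, 481 and 404 CPM in wild type brain (-0.41, SE 0.08, edgeR adjusted p = 0.0766). Next came si:dkey-85k7.7, at 36.4, 34.7 and 29.2 CPM in mutant brain, against 52.0, 64.2 and 43.2 CPM in wild type brain (-0.66, SE 0.14, edgeR adjusted p = 0.0869). DESeq2 called hbaa1 and si:dkey-85k7.7. The genotypes did not overlap for any of these 3 genes, and for arrdc3b the highest mutant and the lowest wild type library nearly met. The share of all genes without overlap between genotypes was not counted, so nothing is read from this.

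The mean level of the 32 genes overlapped between genotypes, at 6.48, 6.37 and 6.18 log2 CPM in mutant brain, against 6.36, 6.91 and 6.46 log2 CPM in wild type brain. Wild type library 2 stood highest. Without it 23 genes lay below 0 with a median of -0.07, and without any other library 25 to 30 did. The insulin, FoxO and fasting list had 26 of 33 below 0 in the mutants (median -0.14), with 12 lower and 1 higher at an unadjusted p under 0.05. Its mean overlapped too, at 5.90, 5.80 and 5.71 log2 CPM in mutant brain, against 5.93, 6.12 and 5.84 log2 CPM in wild type brain. Glucocorticoid-responsive genes had 23 of 31 below 0 (median -0.18, 12 lower at that level). Both counts include cebpd, the gene knocked out, whose place there was fixed in advance. JAK-STAT and IL-6 family genes had 24 of 33 below 0 (median -0.08, 9 lower). The sterol list had 20 of 30 below 0 (median -0.06). Wild type library 2, highest for the 32 genes and the insulin list, was lowest for the sterol list, at 4.40 log2 CPM. Wild type libraries 1 and 3 stood at 4.82 and 4.64 log2 CPM for that list, and the mutants at 4.41, 4.46 and 4.83 log2 CPM. The sterol list thus varied among ablated brains of the same genotype. Marker lists of other cells also lay largely to one side of 0 in the mutants. Photoreceptor and pineal markers had 32 of 34 above 0 in the mutants (median 1.02, 22 higher at an unadjusted p under 0.05), and summed to 1302, 1457 and 1145 CPM in mutant brain, against 749, 1001 and 1034 CPM in wild type brain. Microglia and macrophage markers had 18 of 22 below 0 (median -0.23), with sums of 1513, 1539 and 1373 CPM in mutant brain, against 1542, 1705 and 1648 CPM in wild type brain. Their part in the values of the brain genes was not tested. In all libraries of the cebpd experiment fish had been ablated, so these values say nothing of uninjured mutants.

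**Figure D4:**
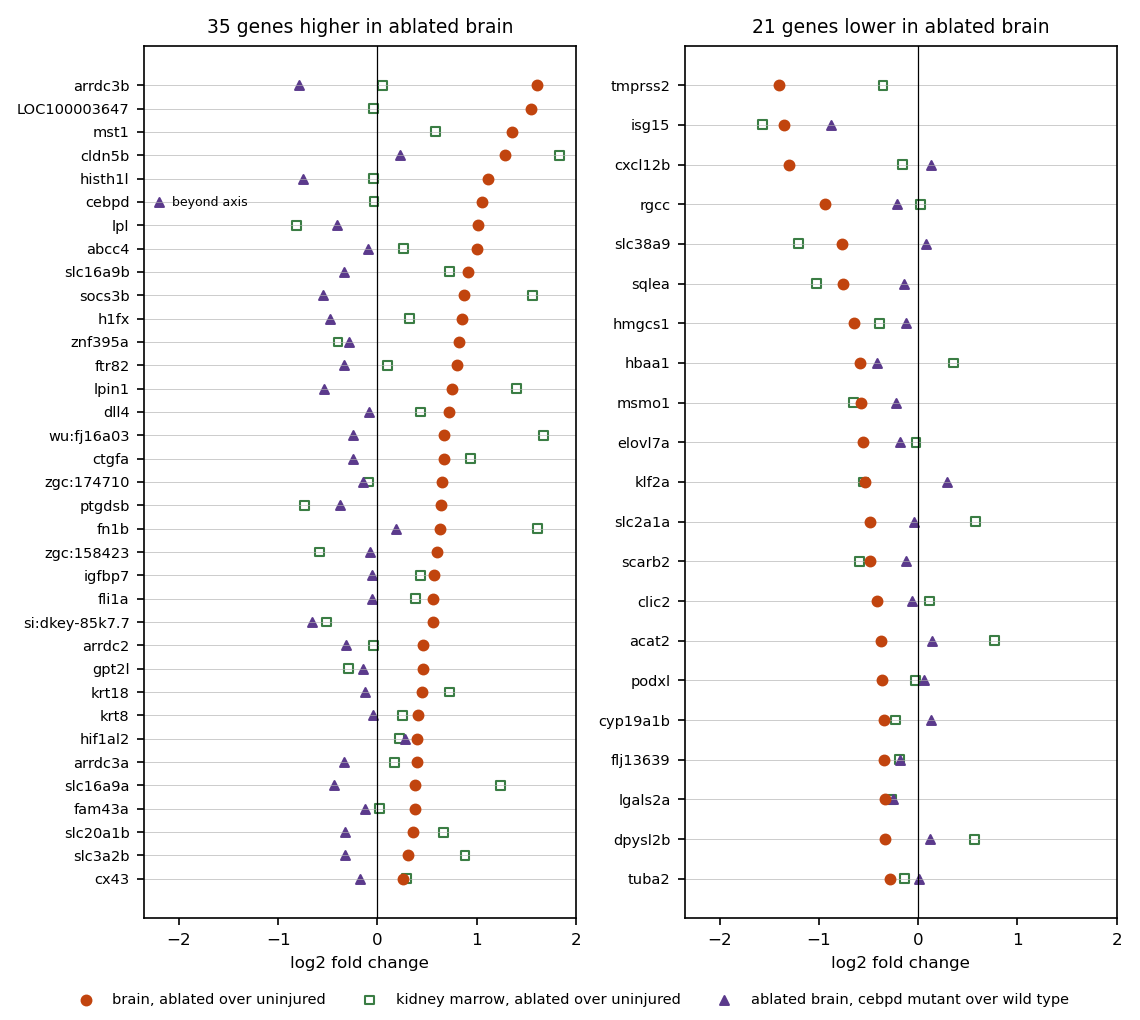
Log2 fold changes (x axis) of the 35 genes higher in ablated brain (left) and the 21 lower (right), 1 gene per line, in the brain (circles), in kidney marrow (squares) and in cebpd mutant over wild type ablated brain (triangles). mst1, LOC100003647 and tmprss2 were not tested in the last, and cebpd lies beyond the axis at -4.96. On the left 30 of 33 triangles lie below 0, among them that of cebpd, the gene knocked out.

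**Figure D5:**
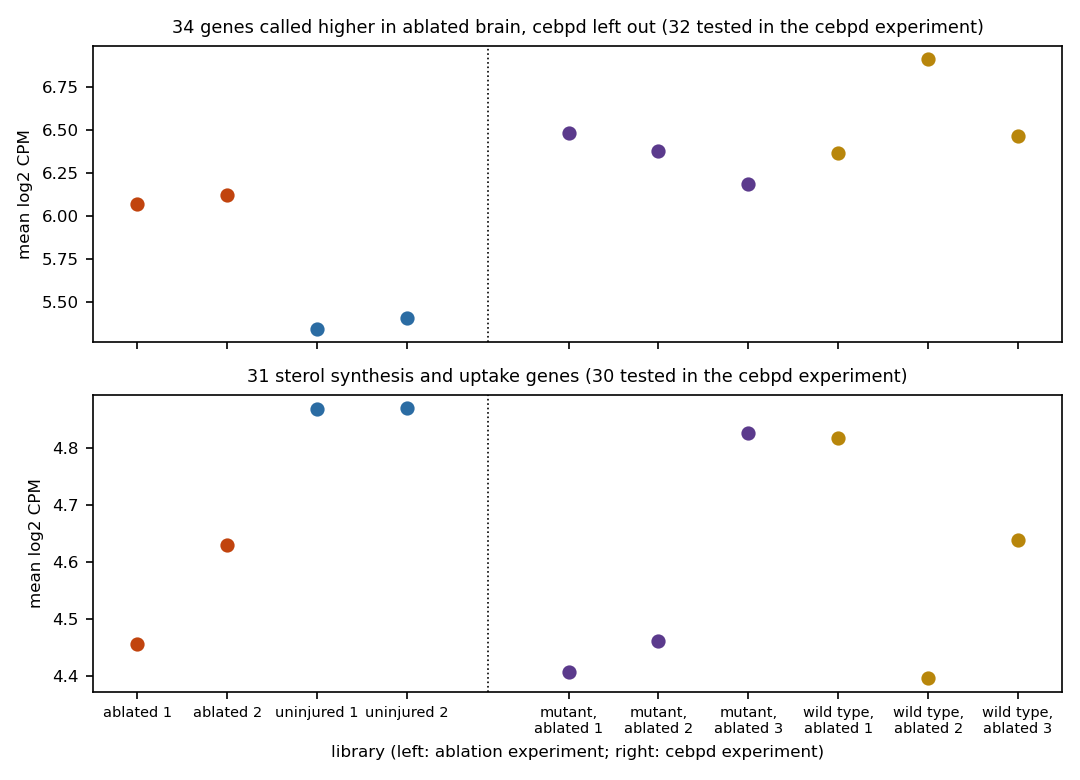
Mean log2 CPM (y axis) of the genes called higher in ablated brain without cebpd (top) and of the sterol list (bottom) in each brain library (x axis, mutants left of wild type in the cebpd experiment). In the ablation experiment the groups separate in both panels. In the top one they do so by construction, since the genes were chosen for it. The sterol list was chosen with earlier results of these data known, so its separation is no independent support. In the cebpd experiment mutant and wild type libraries overlap in both.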

How the data were processed

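RNA of brain was measured by sequencing. The authors deposited raw read counts for 14781 gene symbols, in whole numbers and not normalized. RNA-seq and ATAC-seq share 1 tool list in the submitters' processing notes, by which the authors used HTSeq 1.6.1, TopHat2 2.1.1, Bowtie2 2.2.5, Trim Galore (0.4.1 and 0.6.4), Picard 1.91, SAMtools 1.5 and MACS2, with danRer10 as the build. Neither the annotation nor the treatment of strand and of multiply mapped reads is given in these notes, so overlapping and near-identical genes are uncertain. In the 4 brain libraries 57.3% to 58.2% of reads lay outside genes. They stayed out of all fits with the other summary lines. ATAC-seq libraries were not analysed here.

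Counts were fitted in R 4.3.3 with edgeR 4.0.16 (filterByExpr, TMM, glmQLFit and glmQLFTest, no replicate block) over the libraries of each comparison, with Benjamini-Hochberg adjustment over all genes tested and a threshold of 0.05. The procedure was run on simulated counts with the same spread for every gene. That run says nothing of genes that vary more between libraries. SE is the absolute log2 fold change divided by the square root of F. Text values of single genes are CPM per library. Alternatives were RLE size factors, DESeq2 1.42.0, edgeR's older quasi-likelihood method, no filter on low counts, a mean count of at least 50, a replicate block, leaving out each library, and a wider fit of 8 libraries. The older method gave the adjusted p of the main fit for every called brain gene, so it was no separate check there. Leaving out each library for the gene lists and leaving cebpd out of the mutant count were added after seeing the data.

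Named are all called genes, the 5 nearest to the threshold in each direction, up to 4 members of each list with the smallest p, for the tissue difference called brain genes and 5 further genes per direction, up to 6 genes per library that 1 library sets apart, and the 5 symbol families with the highest and the lowest median. The lists and the genes followed were chosen with earlier results of these data known.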

Additional observations from a re-analysis of the deposited data

Results flagged for a closer look

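The response to ablation differed between brain and kidney marrow, by the edgeR interaction test over 8 libraries, for 2 of the genes called in the brain and among further genes for the 5 with the smallest p in each direction. Values are the brain response minus the marrow response on the log2 scale. Among the brain genes, cxcl12b differed by -1.15 and acat2 by -1.14. A higher response in brain was called for mtmr7a (1.44), the polyamine acetyltransferase gene sat1a.1 (1.43), the amino acid transporter gene slc43a2b (1.41), the metallothionein gene mt2 (1.11) and gstr (0.72). In these 5 genes the marrow value was lower after ablation, from -1.504 for mtmr7a to -0.62 for gstr, and none was called in the brain, where slc43a2b came nearest (0.74, edgeR adjusted p = 0.0673). A lower response in brain was called for the neurotrophin gene bdnf (-2.349), the ceruloplasmin gene cp (-1.94), rgs7bpa (-1.71), sae1 (-1.46) and tmem35 (-1.46). In these 5 genes the marrow value was higher after ablation, from 1.28 for sae1 to 2.19 for bdnf, while the brain values ran from -0.18 for sae1 to 0.06 for rgs7bpa. bdnf stood at 1.995 and 2.19 CPM in ablated marrow, against 0.456 and 0.456 CPM in uninjured marrow. The edgeR adjusted p for the 12 ran from 0.0245 to 0.0462, and none was called when any 1 brain library was left out.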

How the results depend on the processing

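In no alternative did a called value change sign. Leaving out 1 library gave 25 to 99 higher and 12 to 101 lower brain genes: 69 and 101 without ablated library 1, 99 and 98 without ablated library 2, 27 and 48 without uninjured library 1, and 25 and 12 without uninjured library 2. The fit over 8 libraries called 0 higher and 1 lower, with no filter 36 were lower, and the other brain alternatives without a block stayed within 1.5 times. The tissue difference gave 104 higher and 160 lower genes in DESeq2 and 0 to 115 and 0 to 198 without 1 library, with the upper ends both without marrow uninjured library 1. Of the brain genes, DESeq2 passed 10 as higher and 5 as lower in marrow. In the mutants DESeq2 passed 3 as lower, no filter 3, and leaving out 1 library 1 to 5, the most without wild type library 3. The cause of these moves was not tested.

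With a replicate block the brain counts were 163 higher and 195 lower, those of the tissue difference 20 and 88, those of the brain genes in marrow 8 higher and 4 lower, and in the mutants 6 lower. Deviations of libraries with the same number correlated at r = -0.01 in brain, 0.03 in marrow and -0.06 to -0.01 in the cebpd experiment. The labels state no batch shared by a replicate number. A correlation over all genes cannot exclude a batch that moves some genes, so whether the numbers pair the libraries is not known. With 2 libraries per group in brain, and 14364306 reads in the shallowest of them, small changes of genes near 2 CPM were not detectable. The libraries of the cebpd experiment were shallower still, from 4377028 reads in genes.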
